A study of Mus musculus with 8 samples.

Results

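The genes described here encode the protein components of the cytosolic ribosome. They were taken by name from the protein-coding genes of the mouse mm10 (GRCm38) annotation: symbols of Rpl or Rps followed by a digit, with Rplp0, Rplp1, Rplp2 and Rpsa, and without the S6 kinase (Rps6k) and Rps19bp1 symbols. This gave 90 of 21887 genes. Of the 90, 77 carry a plain ribosomal protein symbol and 13 carry a symbol that marks a paralog, a retrocopy or a pseudogene-derived gene. Accessible chromatin was mapped by ATAC-seq, in which a transposase places sequencing adapters into open DNA, in splenic natural killer (NK) cells. The MUT mice carried an HSF1 protein (the transcription factor that drives the heat shock response) with alanine in place of serine at residues 303 and 307 (S303/7A), and the WT mice were wild-type for HSF1. There were 4 MUT and 4 WT mice, each a biological replicate, at steady state. NK cells were enriched with DX5 beads and sorted as CD49b+ CD3e- cells, 200000 from each mouse. The labels give no strain, age, litter or handling, so any such difference cannot be told apart from the genotype.

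The ribosome has a small subunit, which reads the mRNA and whose proteins are named Rps, and a large subunit, which joins amino acids and whose proteins are named Rpl. The proteins are needed in balanced amounts, and their genes are active in nearly every cell type. Many ribosomal protein mRNAs begin with an unbroken run of C and T bases, the motif through which their translation follows growth signals. Several of the genes hold small nucleolar RNA (snoRNA) genes, which guide the modification of ribosomal RNA, in their introns. Mammalian genomes also carry many copies of these genes made from reverse-transcribed mRNA, which arrive without the parent's promoter.

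Each library was deposited as 1 list of peaks, and the lists held 44333 to 49627 peaks for MUT and 42695 to 46102 for WT. The lists hold no read counts, so depth is unknown and a peak that was not called does not mean that the DNA was closed. Of 12 NK markers, 11 had a peak within 1 kb of a gene end in all 8 libraries, among them Ncr1, Eomes and Tbx21, and only Fcgr3 had none. The same held for 5 of 10 T cell markers, including Cd3d, Cd3e and Cd3g, and Cd8a and Cd8b1 had none. It held for 2 of 12 B cell, 4 of 12 myeloid and 4 of 11 erythroid or platelet markers, with none at Lyz2, Gata1 or Hbb-bt. The summed length of peaks linked to B cell markers was 4338 to 6461 bp in MUT and 4119 to 5152 bp in WT, and that linked to T cell markers was 9109 to 13460 bp in MUT and 8281 to 9823 bp in WT. Their part in the values below was not tested.

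The promoters of 69 of the 90 genes are in the RefSeq promoter table of the GRCm38.p6 build. A few are printed here because they carry the contrasts described next: genes with strong or wide regions, and retrocopies or paralogs set beside their parents. Each runs 5′ to 3′ on the gene's strand, from 100 bases before the annotated start to 20 bases from it. Capitals mark CCGGAAG (an Ets factor site), AAGATGGC (a YY1 site), TATAAA, or an unbroken C/T run of at least 5 bases over the annotated start.
Rps6 (chr4:86857348-86857467, minus strand): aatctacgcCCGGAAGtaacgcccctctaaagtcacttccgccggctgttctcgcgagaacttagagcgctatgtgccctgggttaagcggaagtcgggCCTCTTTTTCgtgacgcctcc
Rps26 (chr10:128626487-128626606, minus strand): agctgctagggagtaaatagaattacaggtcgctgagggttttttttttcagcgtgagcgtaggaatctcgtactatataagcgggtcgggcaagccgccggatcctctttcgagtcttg
Rpl4 (chr9:64173287-64173406, plus strand): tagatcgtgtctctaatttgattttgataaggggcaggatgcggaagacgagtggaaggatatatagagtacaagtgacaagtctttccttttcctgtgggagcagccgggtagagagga
Rps27 (chr3:90213629-90213748, minus strand): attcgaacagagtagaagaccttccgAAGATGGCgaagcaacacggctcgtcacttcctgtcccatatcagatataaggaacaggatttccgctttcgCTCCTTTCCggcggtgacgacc
Rps27rt (chr9:114982720-114982839, minus strand): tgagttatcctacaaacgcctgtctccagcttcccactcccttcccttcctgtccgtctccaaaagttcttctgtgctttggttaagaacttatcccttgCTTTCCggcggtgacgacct
Rpl39 (chrX:37085203-37085322, minus strand): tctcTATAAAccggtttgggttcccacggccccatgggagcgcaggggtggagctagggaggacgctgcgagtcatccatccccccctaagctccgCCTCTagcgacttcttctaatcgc
Rpl39l (chr16:10170128-10170247, plus strand): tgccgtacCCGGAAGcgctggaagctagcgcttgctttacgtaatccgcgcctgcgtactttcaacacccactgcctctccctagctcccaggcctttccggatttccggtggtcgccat

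The first question was which of these genes lie in open chromatin in NK cells of either genotype. All 77 genes with a plain symbol had a peak in the gene or within 1 kb of it in all 8 libraries, against 6 of the 13 paralogs and copies. The share of all protein-coding genes by this measure is not given here. A peak within 1 kb of a gene end was called in all 8 libraries for 79 of the 90 (87.8%), against 50.6% of all protein-coding genes. At the annotated start, 61 of the 69 genes with one (88.4%) had a peak in all 8 libraries, against 49.5% of 17492 genes. The other 8 had no region there in any library, and all are paralogs or copies: Rpl10l, Rpl31-ps12, Rpl32l, Rpl37rt, Rpl39l, Rpl3l, Rps23rg1 and Rps27rt. Of the remaining copies, Rpl22l1, Rpl36al, Rpl7l1 and Rps27l had a region in every library. Rpl34-ps1 had a weak one in 3 MUT libraries (224, 200 and 237 bp) and 1 WT library (262 bp). Neither Rpl17 nor Rps2 had a gene-end peak in any library, and both had a region inside the annotated gene span in all 8. Rpl22 had a gene-end peak in 4 libraries and a region inside its span in all 8. Read positions of near-identical copies can be uncertain, and no source used here says how multiply mapping reads were handled.

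The paralog pairs show the contrast gene by gene. Rpl3, a core large-subunit protein, had a region of 771 ± 62.0 bp in MUT and 731 ± 32.2 bp in WT (SD, n = 4 each), and its muscle paralog Rpl3l had none at its annotated start, although a peak lay within 1 kb of a gene end in all 8 libraries. Rpl39, which lies on the X chromosome and lines the peptide exit tunnel, had a region of 849 to 1289 bp in each library, and Rpl39l, best known from testis, had none. Yet the printed promoters of Rpl39 and Rpl39l hold an equal number of CpG dinucleotides over the full 300 bases, 17 each, and it is Rpl39l that holds the Ets site. Rpl10, one of the last proteins to join the large subunit, had a region of 785 to 823 bp, and its testis paralog Rpl10l had none. Both members of the Rpl22 and Rpl22l1 pair were open: the Rpl22 region lay at a mean percentile of 96.7 of its list and the Rpl22l1 region at 95.0. Rpl36a and Rpl36al were both open as well, at 96.6 and 93.0. Rps27 and the p53-responsive Rps27l were likewise both open and stood at 91.6 and 91.5. The X-linked Rps4x had 1 region of 556 to 838 bp, and Rps4l was not analysed here.

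Rps27rt is a retrocopy whose first bases can be read off the lines above. Beginning at its annotated start it shares 38 bases with Rps27, which holds them from base 1 after its own start. Upstream of that stretch the printed bases differ. The parent has 22 CpG dinucleotides in its 300-base window and the copy has 9. The Rps27 region measured 612 to 641 bp in MUT and 616 to 628 bp in WT, and no peak overlapped the Rps27rt window in any library. In the other 8 parent and copy pairs with both promoters in the table, the longest shared stretch was 7 to 12 bases.

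Each gene was then given its own region: the region at the annotated start, or, for the 21 genes without one, the strongest region in the gene or within 1 kb. An own region was called in all 8 libraries for 81 genes, and the 81 regions were distinct. Their median width was 839 bp, close to the 818 bp over the 8664 genes with a start region in every library. Strength is given as the percentile of the deposited score, an unnamed value that the authors gave each peak, within its own list. The median percentile of the own regions was 84.4, against 79.8 for all start regions. A percentile of at least 90 was reached by 30 of the 81 (37.0%), against 26.1% of all start regions, and 4 lay under 50. These contrasts are not like for like. For genes without an annotated start, the strongest region was chosen by this same score, which favours high percentiles. All start regions of the background were taken at annotated starts. The genes with an annotated start were not compared on their own. The 32 small-subunit regions had a median percentile of 87.8 and the 49 large-subunit regions one of 78.9.

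**Figure D1:**
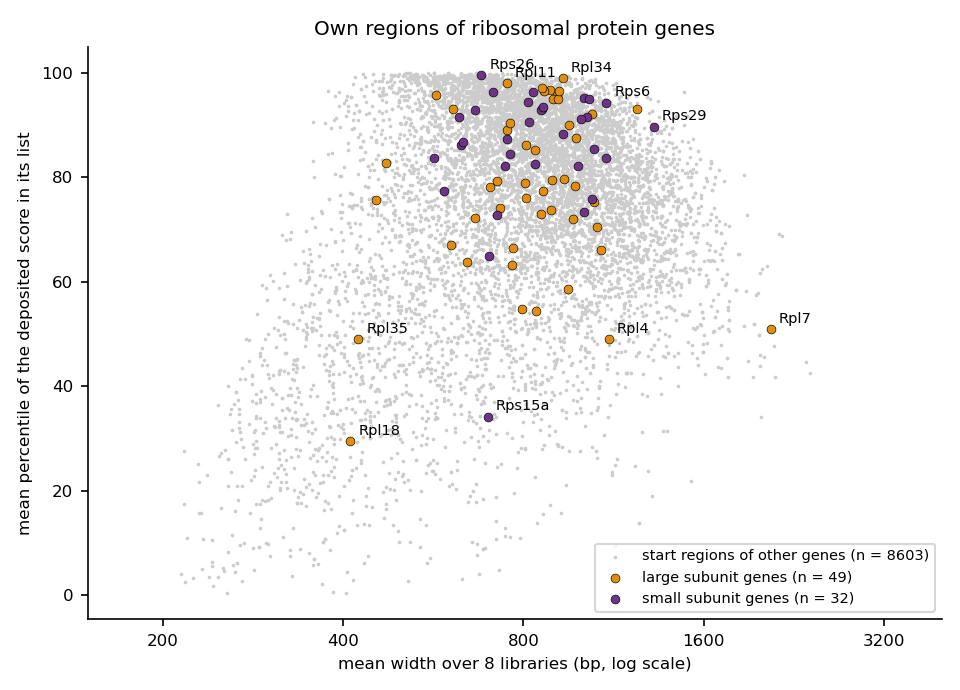
Mean width over the 8 libraries (x axis, bp, log scale) against mean percentile of the deposited score within its list (y axis) for the own regions of 49 large-subunit and 32 small-subunit genes, over the start regions of all other genes in grey. Rps26 and Rpl34 stand at the top at ordinary widths, Rpl18 and Rps15a stand lowest, and Rpl7 is the widest.

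The strongest own region was that of Rps26, a small-subunit protein at the mRNA exit channel. Its percentile was 99.1, 99.5, 99.5 and 99.7 in the MUT libraries and 99.4, 98.9, 99.7 and 99.7 in the WT libraries. The region was only 625 to 703 bp wide in MUT and 678 to 733 bp in WT, and its printed promoter holds none of the marked motifs. Rpl34 followed at a mean of 99.0. Next came Rpl11, at 98.0, and Rplp0, the base of the ribosomal stalk, at 97.1. Rpl11 with Rpl5 and the 5S RNA forms the particle that binds Mdm2 and so stabilises p53. The Rpl5 region was at 87.6 and measured 960 to 986 bp in MUT and 970 to 1000 bp in WT. The other stalk proteins, Rplp1 and Rplp2, stood at 85.3 and 73.7. Rpsa, which also goes by the name laminin receptor, stood at 90.6. Rps19, the gene most often mutated in Diamond-Blackfan anaemia, stood at 83.7, with 1090, 1084, 1087 and 1082 bp in MUT and 1146, 1109, 1091 and 1117 bp in WT.

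The weakest own regions were those of Rpl18 at 29.5, Rps15a at 34.2, Rpl35 at 49.0 and Rpl4 at 49.0. The Rpl18 region was also the narrowest (412 bp in MUT and 409 bp in WT). This holds for the region at its annotated start only. Another region, linked to Rpl18 and overlapping both it and Sphk2, stood at 85.8 (710 bp in MUT and 676 bp in WT). The widest own region was that of Rpl7, with 2101, 1969, 2163 and 1795 bp in MUT and 2175, 2152, 1954 and 2213 bp in WT. It covers the facing end of Rdh10, a retinol dehydrogenase gene. Such shared regions matter for linking, because a peak goes to the nearest gene end. Of the 81 own regions, 9 were linked to a neighbour: those of Rpl4 (Zwilch), Rpl7 (Rdh10), Rpl18 (Sphk2), Rpl36 (Micos13), Rpl36al (Mgat2), Rpl37 (Card6), Rplp2 (Pidd1), Rps18 (Vps52) and Rps25 (Trappc4). Head-to-head starts within 1 kb of a start on the other strand were found for 9 of 69 genes (13.0%), against 8.13% of all genes. The closest were Rps28 and Ndufa7, whose starts lie 10 bp apart.

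**Figure D2:**
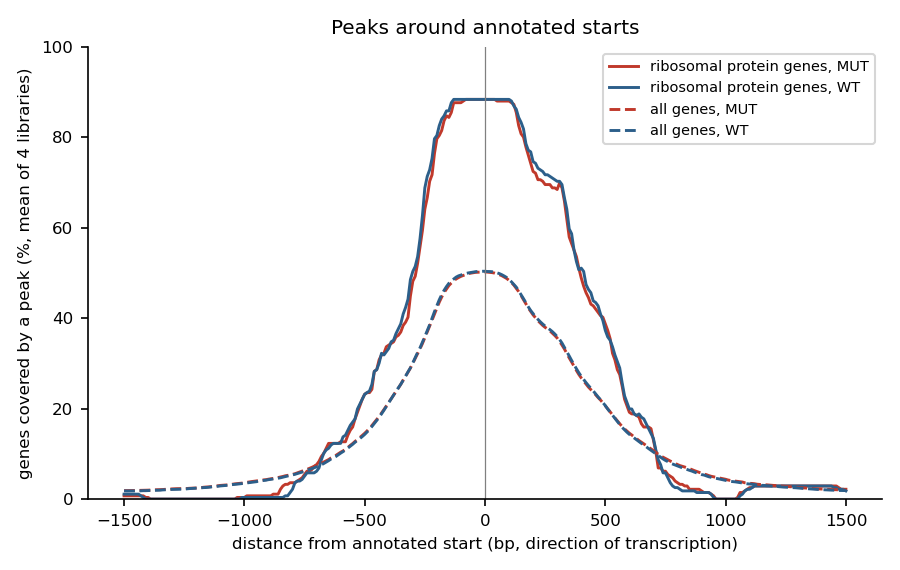
Percent of genes covered by a peak (y axis, mean of 4 libraries) by distance from the annotated start (x axis, bp) for 69 ribosomal protein genes (solid) and all 17492 genes (dashed), with MUT in red and WT in blue. The ribosomal protein genes reach 88.4% at the start and all genes 50.3% in MUT and 50.4% in WT, and the MUT and WT lines run close together.

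Over the 61 genes with a peak on the start, the median reach of that peak downstream of the start was 421, 469, 396 and 340 bp in MUT and 441, 448, 395 and 414 bp in WT. Upstream it was 295 to 315 bp in MUT and 311 to 344 bp in WT. Across all genes the downstream reach was 347 to 398 bp in MUT and 381 to 388 bp in WT, and the upstream reach 316 to 343 bp in MUT and 328 to 337 bp in WT. Peaks thus reached further downstream than upstream in all 8 libraries in both sets, and MUT 29 had the shortest reach in both sets. A snoRNA gene lay inside 30 of the 90 genes (33.3%), 59 snoRNA genes in all, against 1.7% of all genes. Rpl4 held the most, 5, while Rpl7a and Rpl13a held 4 each.

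Motifs were counted in the full window, 250 bases before the start to 50 after it, on both strands unless stated, as a description of letters only. CCGGAAG was present in 26 of 69 promoters (37.7%), against 12.1% of all promoters and 21.5% of promoters with a peak in all 8 libraries. AAGATGGC was in 7.25%, against 3.27% of all and 5.34% of the open ones. The Sp factor site GGGCGG was in 56.5%, against 47.1% of all and 70.2% of the open ones. TATAAA was in 11.6%, against 13.1% of all and 5.71% of the open ones. The heat shock half-site pair GAANNTTC, the kind of element HSF1 binds, was in 4.35%, against 7.28% of all promoters and 5.22% of the open ones. The NRF1 site GCGCATGC was in 2.9%, against 3.64% of all and 6.23% of the open ones. On the sense strand, CTTTT within 10 bases of the start was in 7.25%, against 2.2% of all and 1.93% of the open ones. An unbroken C/T run of at least 5 bases over the start, a form chosen after the first was seen, was in 22 of 69 (31.9%), against 8.5% of all and 8.92% of the open ones, as in the Rps6 and Rps27 lines above. These shares of the 69 include the 8 promoters without a peak, unlike the open set beside them. Of the 61 ribosomal protein promoters with a peak in all 8 libraries, 25 held CCGGAAG, 5 AAGATGGC, 38 GGGCGG and 6 TATAAA. GAANNTTC was in 3 of the 61, GCGCATGC in 2, CTTTT in 5 and the C/T run in 19. The median number of CpG dinucleotides was 22 in the open ribosomal protein promoters, 22 in all open promoters and 6.5 in the 8 without a peak.

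The second question was whether the genotypes differed. For each gene the lengths of all linked peaks (nearest gene end within 50 kb) were summed, scaled per library and compared as log2(bp + 200), MUT minus WT, with limma over 14259 genes and Benjamini-Hochberg adjustment at a threshold of 0.05. Here 96 genes passed (0.673%), 63 higher and 33 lower in MUT. Without the scaling, 63 were higher and 19 lower. Of the 90 ribosomal protein genes 80 could be tested, since they had a linked peak in at least 2 libraries. None of the 80 passed, 5 had an unadjusted p under 0.05, and the lowest limma adjusted p was 0.265, for Rps6. Over all genes 11.2% had an unadjusted p under 0.05. The groups did not overlap for Rps6 and Rpl30 alone, 2 of 80, against 5.75% of all genes tested. The median log2 difference was -0.041, against -0.019 over all genes, with 62 of 80 lower in MUT (77.5%), against 57.9% of all genes. The share of all peaks linked to ribosomal protein genes was 0.294 to 0.303% in MUT and 0.295 to 0.314% in WT, which overlap.

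Rps6 is the small-subunit protein that S6 kinases phosphorylate after growth signals. Its own region, which holds the start printed above, was 982, 991, 1126 and 1001 bp wide in MUT and 1238, 1137, 1190 and 1127 bp wide in WT. The highest MUT value lay 1 bp below the lowest WT value. The log2 width difference was -0.22 (SE 0.0541, limma adjusted p = 0.265), which did not pass. Its percentile was 96.1, 95.7, 94.6 and 94.9 in MUT and 92.1, 95.5, 91.6 and 93.4 in WT. These come from lists of unequal length and so show no change in either direction.

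Several genes at the ends of the list had peaks that were split or linked differently between libraries. Rpl4 had the highest log2 difference of linked length, 1.26 (SE 0.386, limma adjusted p = 0.267), with 446, 467, 450 and 473 bp in MUT and 0, 0, 0 and 457 bp in WT. The region between Rpl4 and Zwilch was called as 2 peaks in all 4 MUT libraries and in WT 7, so that the one on Rpl4 was linked to it. In WT 4, 5 and 6 it was called as 1 peak of 1109 to 1327 bp, linked to Zwilch. The whole region was 1090 ± 173 bp in MUT and 1130 ± 160 bp in WT (limma adjusted p = 0.865). Without WT 7 the linked length of Rpl4 passed the test (log2 1.71, adjusted p = 0.00347), and that is the only setting tried in which any of the 80 did. Rpl7 had the lowest value, -0.78 (SE 1.06), because its wide region was linked to it in only 1 MUT library (1969 bp) and 2 WT libraries (1425 and 1954 bp).

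Rpl7a and Rpl8 owed their low values to a single library. Rpl7a had 976, 984, 992 and 203 bp in MUT and 1001, 986, 1001 and 996 bp in WT, a log2 difference of -0.44 (SE 0.311). The 203 bp belongs to MUT 29, where the own region as a whole covered 855 bp. Rpl8 had 770, 901, 897 and 317 bp in MUT and 862, 916, 810 and 899 bp in WT, and the 317 bp is again MUT 29. Without MUT 29 the log2 difference was -0.08 for Rpl7a and -0.09 for Rpl8. MUT 29 also had the lowest median width over shared regions, 484 bp, against 506 to 537 bp in the other MUT libraries and 494 to 507 bp in WT. Rpl32l, a copy within Map7, was at -0.33 (SE 0.128) with 1772, 2033, 1343 and 1515 bp in MUT and 1875, 2629, 1840 and 1977 bp in WT. All of its linked peaks lay 3.48 to 26.8 kb from the copy itself, inside Map7. Rpl17 was at -0.21.

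Among the higher values after Rpl4, Rpl34-ps1 stood at 0.48 and Rpl37 at 0.25, both from peaks called in only some libraries. Rpl37a followed at 0.11, with 1189, 1504, 1445 and 1008 bp in MUT and 1180, 1169, 753 and 1528 bp in WT. Rpl11 was also at 0.11, with 2582 to 3626 bp in MUT and 2325 to 3035 bp in WT. The longest linked lengths, 1900 to 2840 bp on average over the 8 libraries, belonged to Rpl11, Rpl5, Rpl14, Rpl32 and Rpl29. In none of these did the groups separate. The shortest among genes with a linked peak were Rpl37 (80.6 bp on average), Rpl34-ps1 (115 bp), Rpl37rt (239 bp), Rpl15 (258 bp) and Rpl4 (287 bp). Rpl15 and Rpl37 are short in this measure because their own regions, both above the 95th percentile, were linked elsewhere in most or all libraries.

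**Figure D3:**
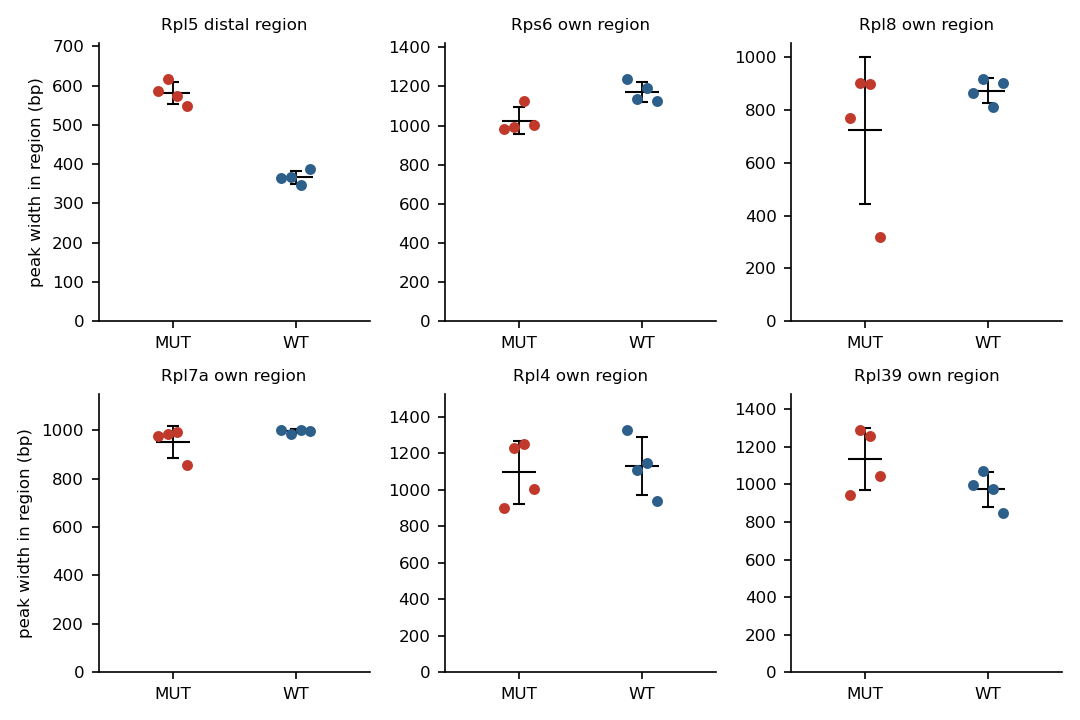
Peak width (y axis, bp) in each of 4 MUT and 4 WT libraries (points), with the mean and SD in black, for the region 17.8 kb from Rpl5 and for 5 own regions. The Rpl5 distal region separates the genotypes at 549 to 617 bp in MUT and 346 to 387 bp in WT, while single libraries spread the Rpl8 and Rpl7a values.

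Widths were next compared region by region over the 34461 regions with a peak in all 8 libraries, as log2 of the width centred on each library's median, with limma. Here 27 regions passed (0.0783%), 17 wider and 10 narrower in MUT. Of 153 regions linked to ribosomal protein genes, 113 were called in all 8 libraries and 1 passed. It lies at chr5:107926540-107927168, 17.8 kb from the nearest end of Rpl5 and inside the body of the neighbouring gene Dipk1a. Its width was 587, 617, 574 and 549 bp in MUT and 366, 368, 346 and 387 bp in WT, with a gap between the groups. The log2 difference was 0.64 (SE 0.0541, limma adjusted p = 0.00929). The left edges fell at 107926549 to 107926558 in MUT and at 107926540 to 107926562 in WT. The right edges fell at 107927097 to 107927168 in MUT and at 107926907 to 107926926 in WT. Its percentile was 68.7 to 81.2 in MUT and 70.8 to 90.6 in WT, in lists of unequal length that cannot be compared by rank. Rpl5's own region, at its start, showed a log2 difference of -0.03 (adjusted p = 0.804).

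Other linked regions away from the starts separated the genotypes without passing. A region 3.09 kb from Rpl35a, inside Iqcg, was 370, 353, 351 and 383 bp wide in MUT and 273, 242, 294 and 276 bp in WT (log2 0.40, limma adjusted p = 0.227). A region 12.6 kb from Rpl5 went the other way, with 264 to 322 bp in MUT and 331 to 364 bp in WT (log2 -0.27, adjusted p = 0.298). These 2 were singled out after their values were seen. Of the 113, 11 had an unadjusted p under 0.05, against 9.69% of all shared regions.

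For the 81 own regions none passed, 6 had an unadjusted p under 0.05, and the lowest limma adjusted p was that of Rps6. Their log2 differences ran from -0.41 (Rpl8, SE 0.285) to 0.18 (Rpl39, SE 0.0934). The Rpl39 region was 945, 1289, 1257 and 1043 bp in MUT and 998, 1073, 975 and 849 bp in WT, which overlap. The median was -0.041, against -0.031 over all start regions and -0.018 over all shared regions. It was below 0 in 68 of 81 (84.0%), against 72.4% of all start regions and 58.9% of all shared regions. Without centring, the median of the own regions was -0.013. The direction was thus shared with start regions in general, and the difference between their medians was not tested.

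**Figure D4:**
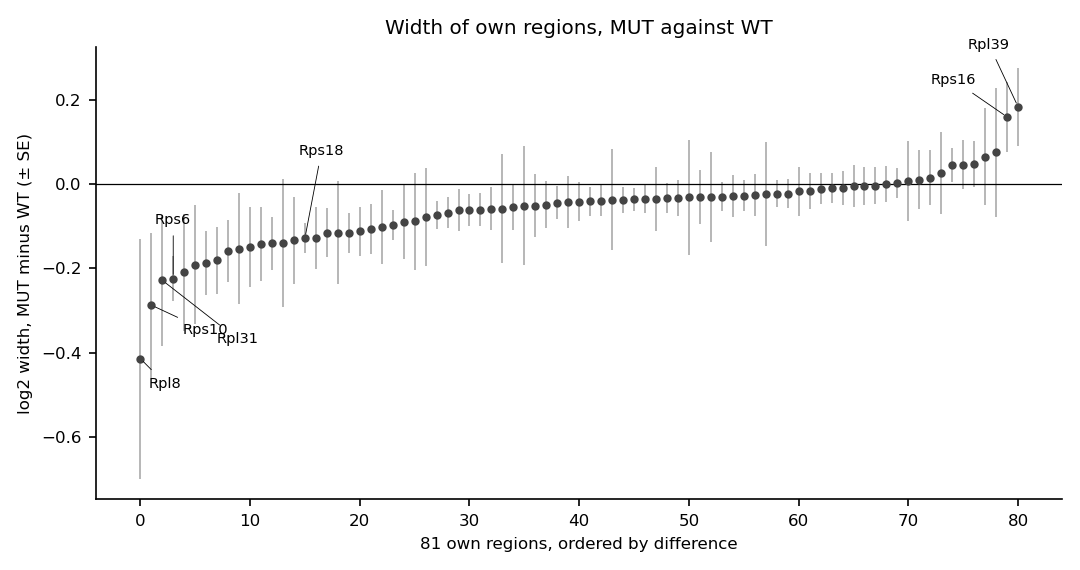
Log2 difference in width, MUT minus WT, with its SE (y axis) for the 81 own regions in order of that difference (x axis). Most lie slightly below 0, 68 of 81, and none passed the test.

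Regions called in 1 genotype only were rare. Of 50044 regions called in at least 2 libraries, 292 (0.583%) had a peak in all 4 MUT and no WT library, and 89 (0.178%) in all 4 WT and no MUT library. Among the 145 such regions linked to ribosomal protein genes, 1 was MUT-only and 0 were WT-only. It lies at chr9:106430761-106431067 inside Rpl29, which encodes a small basic protein of the large subunit. It was 238, 253, 307 and 204 bp wide in the MUT libraries, at percentiles of 15, 5.95, 11.3 and 6.82, near the bottom of each list. No region passed Fisher's exact test (two-sided) after adjustment over all 50044. The smallest p this design allows is 0.0286, which 381 regions reached, and the number of regions with an unadjusted p under 0.05 is that same 381. With so few of the 50044 at that smallest p, none could pass the adjustment, so no conclusion is drawn from this test. The own region of Rpl29 was 859 to 1310 bp in MUT and 863 to 1297 bp in WT.

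Score ranks gave the clearest common direction. Lists of unequal length cannot be compared by rank, so the 34461 shared regions were ranked by score within each library, a step added after the data were seen. The median percentile of the 81 own regions was 77.7, 78.7, 77.0 and 77.9 in MUT and 81.6, 82.3, 80.5 and 83.2 in WT, so every MUT library lay below every WT library. All MUT values lay below all WT values in 20 of the 81 (24.7%), against 7.5% of all shared regions. All lay above in 0, against 5.45% of all shared regions. The same direction appeared at 7948 start regions of all genes, where 15.8% were below and 0.818% above. The median difference was -3.66 percentile points for the own regions, -2.65 for all start regions and -0.409 for all shared regions. It was below 0 for 71 of 81 own regions (87.7%) and for 79.1% of all start regions. No source used here says how the score was computed, and a rank is relative to the other regions of a library.

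The size of the shift differed among the genes, which were named here after their values were seen. Rps15a, a small-subunit protein, ranked at 11.5, 14, 9.73 and 6.34 in MUT and at 38.4, 30.6, 18.6 and 34.1 in WT. Rpl8, at the peptide-joining centre, ranked at 33.7, 38.9, 21.2 and 31.5 in MUT and at 52.2, 56.6, 49.2 and 48.8 in WT. The groups did not overlap for either gene. The means were 10.4 in MUT and 30.4 in WT for Rps15a, and 31.3 in MUT and 51.7 in WT for Rpl8. Rpl35a and Rpl26 were lower by 17.2 and 16.7 points, and their libraries did not overlap either. For Rps15a the width was alike, 696 bp in MUT and 698 bp in WT, so rank and width did not move together. At the top, Rps26 had a mean rank of 99.3 in MUT and 99.3 in WT. Rps6 was higher in MUT (93.7 in MUT and 91.2 in WT), with overlapping libraries.

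**Figure D5:**
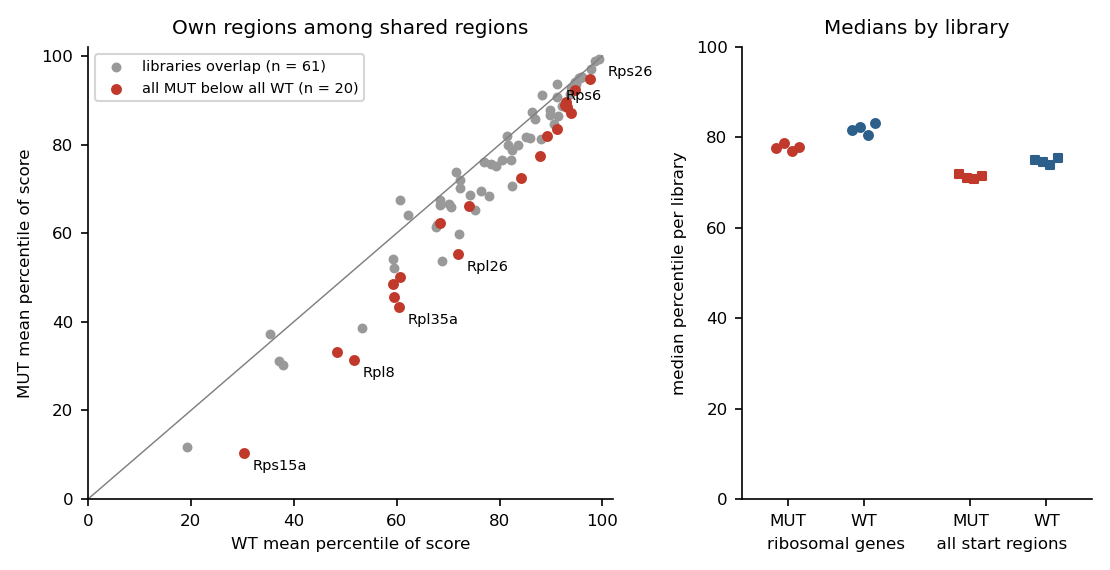
Left, mean percentile of the score among shared regions in MUT (y axis) against WT (x axis) for the 81 own regions, with the 20 whose MUT libraries all lay below all WT libraries in red. Right, median percentile per library (y axis) of the own regions (circles) and of the start regions of all genes (squares) in MUT and WT, showing the MUT libraries lower in both sets.

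Genes that work with the ribosome gave no call either. None passed the linked-length test among 13 tested elongation and termination factors (median log2 -0.032), 37 initiation factors (-0.021), 36 ribosome biogenesis and RNA polymerase I genes (-0.030) and 32 proteasome genes (-0.040, with 28 below 0). The background is the 0.673% given above. At unadjusted limma p under 0.05 there were 2, 2, 1 and 4 genes in these lists, where the background is 11.2% of all genes. A few ribosomal proteins go by other names. Fau, which encodes a ubiquitin-like fusion with a small-subunit protein, had an own region of 416, 436, 405 and 375 bp in MUT and 491, 470, 492 and 466 bp in WT, with no overlap (log2 -0.26, SE 0.0495, limma adjusted p = 0.182). Rack1, a scaffold on the small subunit, measured 862 ± 39.3 bp in MUT and 839 ± 26.0 bp in WT. The 1 gene of the fixed lists that passed was the NK receptor Klrb1c, with 5078 to 5568 bp in MUT and 5959 to 6491 bp in WT (log2 -0.27, limma adjusted p = 0.0315).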

How the data were processed

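Per the labels' protocols, ATAC-seq was done on 200000 sorted NK cells per mouse. Each library was deposited as 1 peak list with positions and an unnamed positive score per peak, which is the authors' own value and was used here only for ranks within a library. Trimmomatic, Bowtie2 2.3.4.1 and DiffBind 3.0.12 are named, with build mm10, per the submitters' processing notes. No source used here names the peak caller, a threshold, a read filter or a transposase shift. There are no read counts, so no depth or counting interval could be given.

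Peaks were linked to the nearest protein-coding gene end within 50 kb of the peak's middle. Overlapping peaks (at least 1 bp) of the 8 lists were merged into regions. Linked length was tested with limma 3.58.1 in R 4.3.3 (trend) on log2(scaled bp + 200) for genes linked in at least 2 libraries. Region width was tested on log2 width, centred per library, and presence with Fisher's exact test in scipy 1.17.1. The limma steps were also run on simulated data with planted changes, and the outcome is not given here. Gene positions, promoters and gene names came from RefSeq (GRCm38.p6), which matched 69 of the 90 promoters.

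The members and lists were chosen with earlier results of these data known. Genes named with values were those past a threshold, the 5 highest and 5 lowest in difference, in linked length and in percentile, those without a gene-end peak in all 8 libraries, those with a region of 1 genotype only, and a fixed list of stalk, disease-linked and paralog genes. The own-region measure, the rank among shared regions and the C/T run were added after the data were seen. Alternatives were pseudocounts of 50 and 1000 bp, no scaling or centring, no filter, equal numbers of peaks, the upper 50% of each list, linking up to 10 kb or by merged region, 100 bp of overlap, 500 bp to a gene end, and leaving out each library. A few named genes are not reported here.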

Additional observations from a re-analysis of the deposited data

Results flagged for a closer look

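In groups of 4 libraries, a single library stood far from the other 3 in 16 of 113 groups checked (by Dixon's gap over range). For independent, normally spread values about 1 in 20 would. The checked groups are the linked lengths and own-region widths of the named genes, which share libraries and regions. The share and summed length of linked peaks per library were checked too. Many genes were named for extreme values in these same libraries, so the count is no test against 1 in 20. In MUT 29, Rpl7a had 203 bp of linked length, against 976 to 992 bp in the other MUT libraries, and 855 bp of own region. Rpl32 had an own region of 765 bp, against 977 to 1014 bp, and Rps27l a linked length of 1210 bp, against 1278 to 1286 bp.

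In other MUT libraries, Rpl36a had 675 bp in MUT 26, against 960 to 985 bp. Rpl22l1 had 1103 bp in MUT 27, against 888 to 893 bp, and Rpl15 an own region of 1044 bp there, against 854 to 883 bp. Rps6 had 1126 bp in MUT 28, against 982 to 1001 bp, the value nearest to the WT range.

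In WT, Rpl32 had 2151 bp of linked length in WT 7, against 1897 to 1915 bp. In the same library Rpl7l1 had 978 bp, against 843 to 853 bp, and Rps27 had 616 bp, against 626 to 628 bp. Rpl36 had 460 bp of linked length in WT 7, against 491 to 496 bp, and an own region of 819 bp, against 792 to 794 bp. Rpl22l1 had 918 bp in WT 4, against 891 to 893 bp. Rpl15 had an own region of 1021 bp in WT 5, against 864 to 880 bp. Rplp1 had 1087 bp in WT 6, against 838 to 866 bp.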

How the results depend on the processing

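No paired analysis was possible because the replicate numbers of the MUT mice (26 to 29) and the WT mice (4 to 7) do not match. No ribosomal protein gene passed the linked-length test under any planned setting with all 8 libraries, and 0 to 1 passed with a library left out. No own region passed under any setting. The Rpl5 distal region passed under every setting run, with a log2 difference of 0.61 to 0.67 when single libraries were left out. The counts over all genes moved more. With all 8 libraries 96 genes passed (63 higher, 33 lower). The count was 41 (28 higher, 13 lower) when linking reached only 10 kb and 22 to 79 with a library left out (19 to 53 higher, 3 to 29 lower). Equal numbers of peaks gave 121 genes, 54 of them lower, and no scaling gave 19 lower. Whether these were the same genes was not counted. With a library left out, the count was lowest without WT 5 and moved by over 1.5 times without MUT 26, MUT 27, MUT 28, WT 4, WT 5 or WT 7, giving 29, 45, 35, 24, 22 and 48 genes. Shared regions past the threshold numbered 15 with the upper 50% of each list and 13 to 44 with a library left out. The lowest was without WT 7, and 44, 43 and 42 passed without MUT 29, WT 5 and WT 6. WT-only regions numbered 138 with equal numbers of peaks, and with the upper 50% of each list 0 MUT-only regions were linked to these genes. The median linked-length difference was -0.008 with no scaling, and -0.052 to -0.031 with a library left out. The own-region median was -0.013 with no centring and -0.018 with the upper 50%, and -0.055 to -0.038 with a library left out. Rpl32l turned to 0.26 with the upper 50%, Rpl11 to -0.04 with linking up to 10 kb and Rpl37a to -0.05 without WT 6 (-0.05 to 0.25 with a library left out), none past the threshold. The cause of these shifts was not tested. The number of mice, 4 for each genotype, and the absence of read counts limit the precision.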
